A study of Mus musculus with 6 samples.

Results

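Cdx1, Cdx2, Isx, Gata4, Gata5 and Gata6 are transcription factor genes, grouped here as intestinal identity factors. Their signals were compared between Klf5-deleted and control embryonic mouse intestine. The genes were chosen by name, with earlier results of these arrays known, so that their shared direction is no independent evidence. Each had 1 row annotated to it alone on the array, so that 6 of the 19938 genes with a value are described, and all 6 were measured. Klf5-deleted embryos carried the genotype Klf5D/D and controls the genotype Klf5wt/wtShhEGFP/Cre+, both at day E14.5 and on a mixed, partly C57Bl/6 background. Each group held 3 Affymetrix Mouse Gene ST arrays, and each array received RNA from 2 pooled intestines cut about 1.5 cm anterior to the cecum. The label of the deleted embryos names no Cre allele. An Shh-driven Cre acts where Shh is expressed, which in the gut is the epithelium, so other layers of the sampled wall would keep Klf5. The comparison addressed which genes may be KLF5 targets before villi form. Values are log2 signals normalised by the authors with RMA, on which a difference of 1 is a 2-fold change.

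CDX1 and CDX2 are caudal-type homeobox factors of the posterior endoderm. In the mouse, endoderm that loses Cdx2 early takes on traits of foregut epithelium, and both factors bind genes of the brush border. ISX is an intestine-specific homeobox factor that lies downstream of CDX2 and holds back genes of vitamin A uptake. GATA4, GATA5 and GATA6 are zinc-finger factors of endoderm. In the mouse intestine GATA4 maintains jejunal genes and keeps ileal genes low, and GATA6 acts in the epithelium along the whole gut. Gata4 and Gata6 are also used in mesoderm.

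All 6 genes were lower in the Klf5-deleted intestine, and in none of them did the arrays of the groups overlap. The falls ran from 1.37-fold in Gata4 to 2.48-fold in Gata5. With limma and Benjamini-Hochberg adjustment over all genes, 6 of 6 passed an adjusted p of 0.05 as lower, where 8.58% of the 19938 genes did. Among all genes 15.9% had groups that did not overlap with Klf5-deleted pools lower. Ranked by log2 fold change over all genes, Gata5 had the 133rd largest fall, Cdx1 the 266th, Isx the 319th, Cdx2 the 493rd, Gata6 the 718th and Gata4 the 731st. The exact two-sided permutation test of each gene alone gave p = 0.1, the smallest value that 3 arrays against 3 allow. No label says that pools came from separate litters, and the p values are only as wide as the variation among these 6 pools.

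The deleted gene, Klf5, gave 10.24, 10.49 and 10.34 in Klf5-deleted pools, against 11.55, 11.74 and 11.77 in control pools, which left 39.8% of the control signal. The sex of the pools differed between the groups. Xist read 5.89 to 6.47 in Klf5-deleted pools and 11.93 to 12.61 in control pools, and the male share estimated from Y-linked genes (0% at the lowest array, 100% at the Klf5-deleted mean) was 95.02% to 103% in the Klf5-deleted pools and 0% to 47.1% in the control pools. With that share as a covariate only Gata5 among the 6 genes passed (log2 fold change -1.67, limma adjusted p = 0.0228), and adjusted p was 0.197 to 0.284 for the other 5, whose signs stayed negative. Of the gene lists described further on, 3 CDX-dependent genes and 1 pan-epithelial gene passed as lower in that fit, and 0 genes of the GATA4, ileal, ISX, relatives, stomach, hindgut, mesenchyme and mesothelium lists passed in either direction. Every Klf5-deleted pool had a higher share than any control pool, so pool sex and genotype could not be told apart. The SE of each of the 6 genes was larger in that fit than without the covariate. It was 0.23 beside 0.08 for Cdx1 and 0.17 beside 0.08 for Gata5. The part of pool sex in these results was not tested further.

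**Figure D1:**
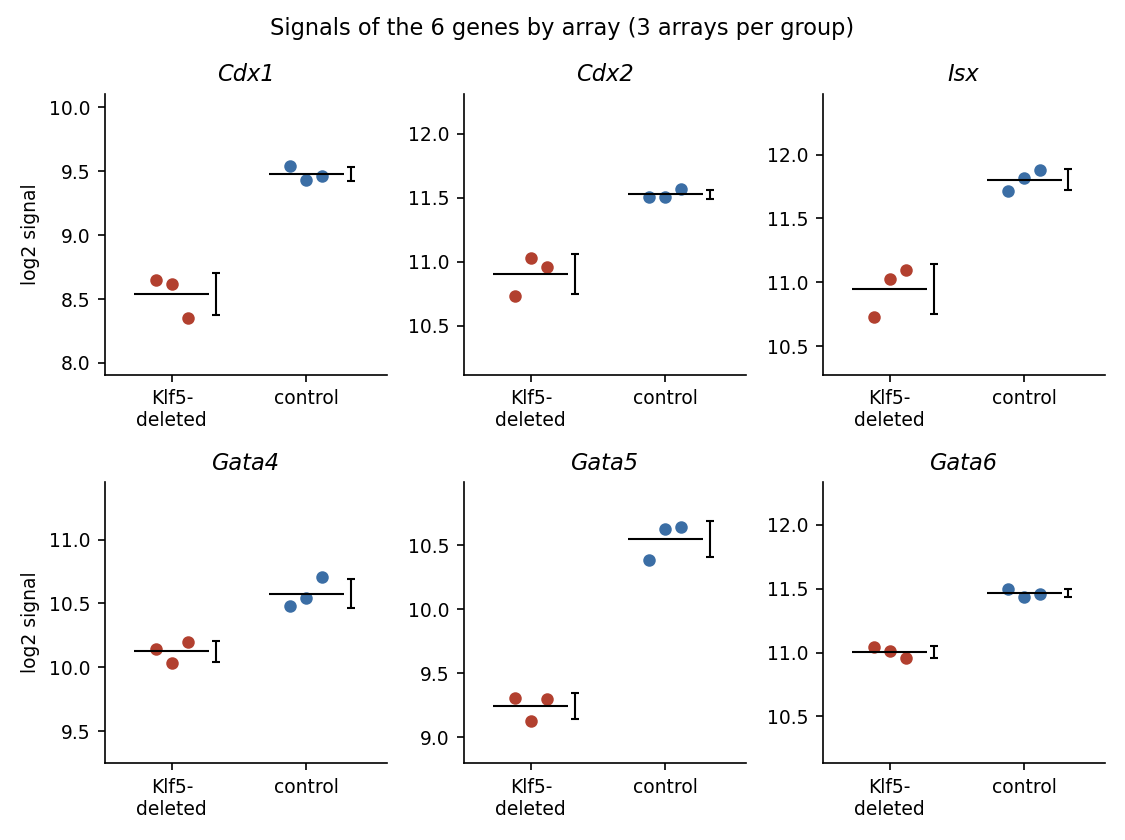
Log2 signals of the 6 genes (vertical axis) in the 3 Klf5-deleted arrays (red, left) and the 3 control arrays (blue, right), with each group's mean as a line and its SD as a bar. All panels span the same number of log2 units, and in each of them the Klf5-deleted arrays lie below all control arrays, with the widest gap in Gata5.

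Cdx1 read 8.65, 8.62 and 8.35 in Klf5-deleted pools, against 9.54, 9.43 and 9.46 in control pools. Replicate 3 was the lowest of the Klf5-deleted pools, and the highest of them lay 0.78 below the lowest control array. The group means were 8.54 ± 0.16 and 9.48 ± 0.06 (SD, n = 3 each), a log2 fold change of -0.94 (95% interval -1.13 to -0.75, limma adjusted p = 0.000402). The Cdx1 signal in the Klf5-deleted intestine was 52.1% of the control level.

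Cdx2, the member of the pair that specifies intestinal endoderm in the mouse embryo, read 10.73, 11.03 and 10.96 in Klf5-deleted pools, against 11.50, 11.51 and 11.57 in control pools. Replicate 1 was the lowest Klf5-deleted array, and the control pools lay close together. Cdx2 averaged 10.91 ± 0.16 in Klf5-deleted pools and 11.53 ± 0.04 in control pools (SD, n = 3 each), with a log2 fold change of -0.62 (95% interval -0.80 to -0.44, limma adjusted p = 0.00220). It was 65.0% of the control level.

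Isx read 10.73, 11.03 and 11.10 in Klf5-deleted pools, against 11.72, 11.82 and 11.88 in control pools. As for Cdx2, Klf5-deleted replicate 1 was the lowest array, and the gap between the groups was 0.62. The Isx means were 10.95 ± 0.20 in Klf5-deleted pools and 11.80 ± 0.08 in control pools (SD, n = 3 each). The log2 fold change was -0.85 (95% interval -1.08 to -0.62, limma adjusted p = 0.00141), which left 55.3% of the control signal.

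Gata5 had the largest fall of the 6. It read 9.30, 9.12 and 9.30 in Klf5-deleted pools, against 10.39, 10.63 and 10.64 in control pools. The lowest control array was 1.09 above the highest Klf5-deleted array. Gata5 averaged 9.24 ± 0.10 in Klf5-deleted pools and 10.55 ± 0.14 in control pools (SD, n = 3 each), a log2 fold change of -1.31 (95% interval -1.51 to -1.11, limma adjusted p = 0.000104). The remaining signal was 40.3% of the control level, beside 39.8% for Klf5.

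Gata4 read 10.14, 10.03 and 10.20 in Klf5-deleted pools, against 10.48, 10.54 and 10.70 in control pools. Its groups were the closest of the 6 genes, 0.28 apart. The Gata4 means were 10.12 ± 0.09 and 10.58 ± 0.12 (SD, n = 3 each) in Klf5-deleted and control pools, with a log2 fold change of -0.45 (95% interval -0.62 to -0.28, limma adjusted p = 0.00590). Gata6 read 11.05, 11.01 and 10.96 in Klf5-deleted pools, against 11.50, 11.44 and 11.46 in control pools. It had the smallest spread of the 6, with SD of 0.05 in Klf5-deleted pools and 0.03 in control pools. Its log2 fold change was -0.46 (95% interval -0.56 to -0.35, limma adjusted p = 0.000746). Gata4 and Gata6 kept 73.1% and 72.9% of their control signals.

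**Figure D2:**
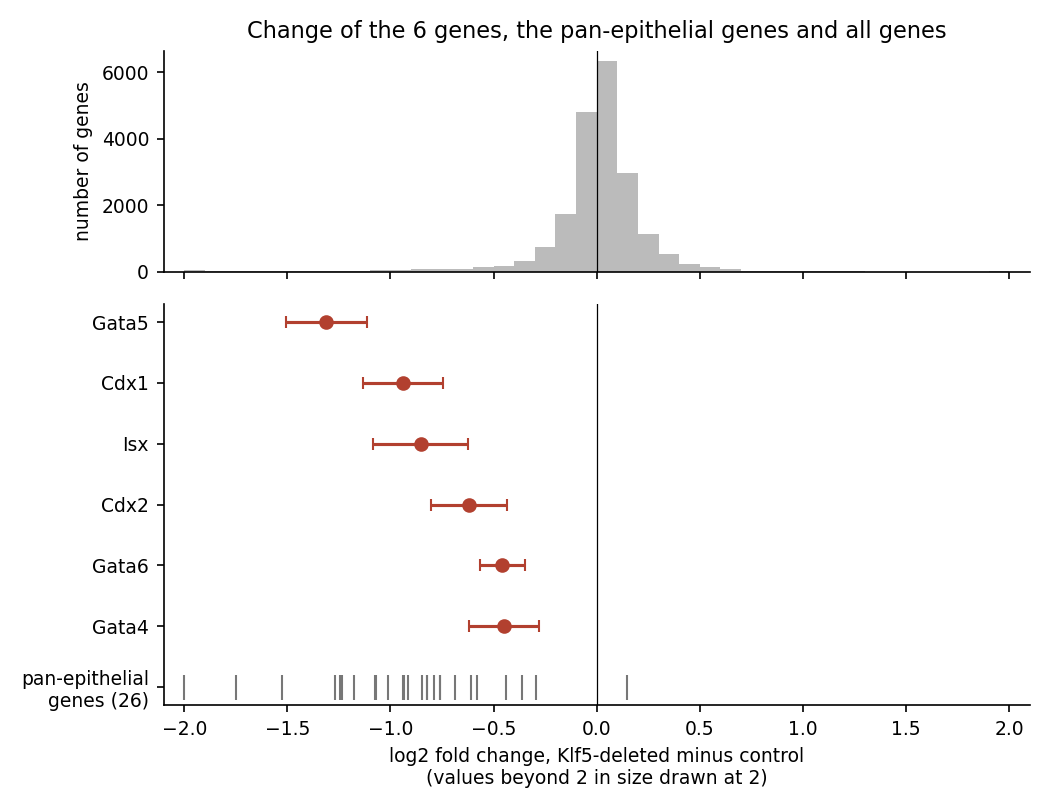
Log2 fold changes of Klf5-deleted minus control (horizontal axis) for all 19938 genes as a histogram (top, vertical axis in number of genes) and for the 6 genes with limma's 95% intervals (bottom), above ticks for the 26 pan-epithelial genes. All 6 intervals lie below 0, from -1.31 for Gata5 to -0.45 for Gata4, within the range of the pan-epithelial genes.

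The upstream sequences that RefSeq gives for Cdx2, Isx and Gata5 are printed as 1 member of each family, since KLF5 is known to bind CACCC and GC-rich boxes. Those of Cdx1, Gata4 and Gata6 are not shown here. Each runs from 250 bases before to 50 after the gene's start on build GRCm38.p6, 5′ to 3′ along the strand of the gene. Capitals mark matches to CACCC or GGGCGG on either strand (GGGTG or CCGCCC in the printed strand).
Cdx2 (chr5:147307200-147307499, minus strand): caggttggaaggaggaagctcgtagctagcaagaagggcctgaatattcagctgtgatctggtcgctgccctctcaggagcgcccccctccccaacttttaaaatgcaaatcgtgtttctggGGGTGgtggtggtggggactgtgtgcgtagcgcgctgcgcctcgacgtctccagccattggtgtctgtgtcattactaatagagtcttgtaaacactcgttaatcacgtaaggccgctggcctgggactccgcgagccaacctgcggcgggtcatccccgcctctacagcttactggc
Isx (chr8:74872924-74873223, plus strand): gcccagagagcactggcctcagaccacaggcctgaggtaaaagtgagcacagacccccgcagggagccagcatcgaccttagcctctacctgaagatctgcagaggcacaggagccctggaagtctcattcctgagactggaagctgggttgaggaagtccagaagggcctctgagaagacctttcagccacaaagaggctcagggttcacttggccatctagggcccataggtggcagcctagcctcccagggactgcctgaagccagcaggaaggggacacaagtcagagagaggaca
Gata5 (chr2:180334630-180334929, minus strand): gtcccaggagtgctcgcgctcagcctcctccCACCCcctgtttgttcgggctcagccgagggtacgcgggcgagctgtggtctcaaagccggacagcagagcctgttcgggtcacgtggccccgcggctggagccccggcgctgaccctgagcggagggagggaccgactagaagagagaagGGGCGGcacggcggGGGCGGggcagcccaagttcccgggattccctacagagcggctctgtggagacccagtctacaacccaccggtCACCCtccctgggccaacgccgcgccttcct

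The Gata5 window held 2 CACCC and 2 GGGCGG matches, all on the strand of the gene, and had a GC content of 69.7%. The Cdx2 window held 1 CACCC match, on the opposite strand, and no GGGCGG, at 57.3% GC. The Isx window held neither, at 58.7% GC. No 2 marked matches overlap. Over the 32851 windows of this length in the same table, 57.5% held CACCC and 35.7% held GGGCGG on either strand. The letters TTTAT, the core of a CDX site, and AGATAA, a form of the GATA site, were in none of the 3 windows on either strand, and in 40.0% and 11.2% of all windows. A match or its absence is a description of these letters in this window.

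Within the GATA family Gata5 had a larger fall than either relative. The log2 signal of Gata5 minus that of Gata4 in the same array was -0.84, -0.91 and -0.90 in Klf5-deleted pools, against -0.09, 0.08 and -0.06 in control pools. These groups did not overlap, and Gata5 had fallen by 0.86 more than Gata4 on the log2 scale (SE 0.06, exact permutation p = 0.1, adjusted over 4 pairs p = 0.2). Gata5 minus Gata6 was -1.74, -1.89 and -1.66 in Klf5-deleted pools and -1.11, -0.81 and -0.81 in control pools. Gata5 had fallen by 0.85 more than Gata6 (SE 0.12, exact permutation p = 0.1, adjusted p = 0.2).

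Gata4 and Gata6 changed by nearly the same amount. Gata4 minus Gata6 was -0.91, -0.98 and -0.76 in Klf5-deleted pools and -1.02, -0.89 and -0.75 in control pools, and the groups overlapped. The difference between their log2 fold changes was 0.01 (SE 0.10, exact permutation p = 1.0). Without Klf5-deleted replicate 3 it was -0.06, and without control replicate 1 it was also -0.06. With 3 arrays a group the exact test cannot give a p below 0.1. An unequal change larger than this error could therefore be missed too, so these values do not show that the changes were equal.

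In the caudal family, Cdx1 had the larger fall, but the arrays did not separate the genes. Cdx1 minus Cdx2 was -2.08, -2.41 and -2.61 in Klf5-deleted pools, against -1.96, -2.08 and -2.11 in control pools. Klf5-deleted replicate 1 lay within the control range. The difference between the log2 fold changes was -0.32 (SE 0.16, exact permutation p = 0.2, adjusted p = 0.267). It was -0.46 without Klf5-deleted replicate 1 and -0.20 without Klf5-deleted replicate 3. Levels of different probe sets are not on a common scale, so only the change of each difference is read here.

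**Figure D3:**
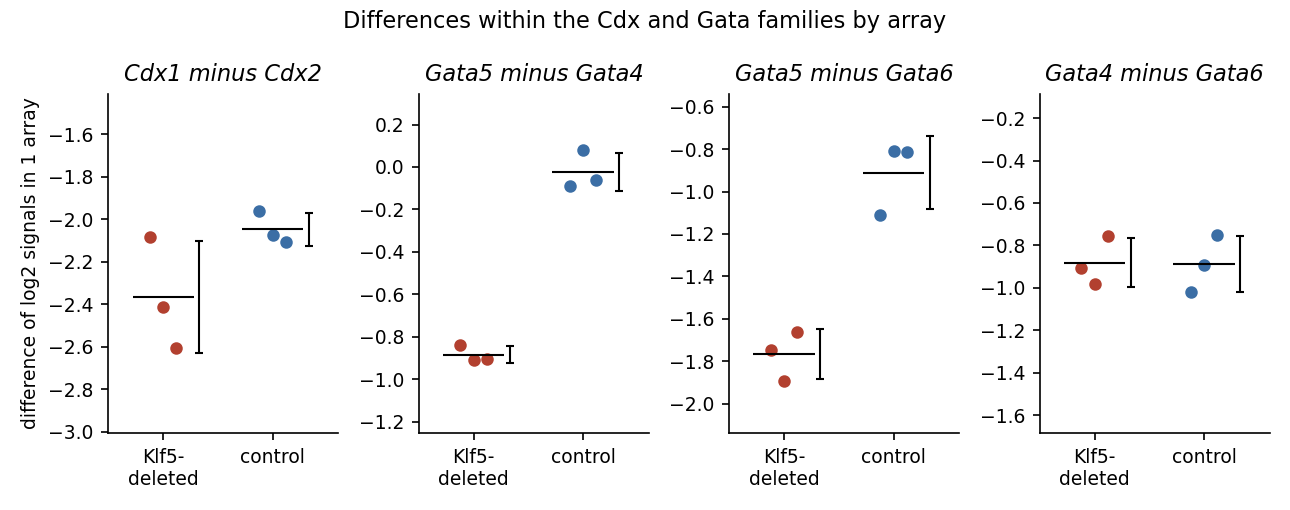
Difference between the log2 signals of 2 genes in the same array (vertical axis) for 4 pairs, in Klf5-deleted (red, left) and control arrays (blue, right), with the group mean as a line and the SD as a bar. Gata5 minus Gata4 and Gata5 minus Gata6 separate the groups by 0.86 and 0.85 on average, whereas the groups overlap for Cdx1 minus Cdx2 and Gata4 minus Gata6.

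The arrays hold RNA of the whole gut wall, in which fewer epithelial cells and less RNA per epithelial cell cannot be told apart. The mean log2 signal over 26 measured pan-epithelial genes, which epithelia of many organs use, was 9.66, 9.87 and 9.89 in Klf5-deleted pools, against 10.73, 10.77 and 10.79 in control pools. Of these 26 genes, 25 fell and 0 rose, with a median log2 fold change of -0.88, beside a median of 0.02 over all genes. Those that fell were 96.2% of the list, beside 8.58% of all genes. Krt8, a keratin of simple epithelia chosen after its values were seen, fell by 0.82 and lay at 11.55 to 11.76 in Klf5-deleted pools and 12.43 to 12.48 in control pools. Gata5 fell further than 23 of the 26 pan-epithelial genes, Cdx1 further than 15, Isx further than 13, Cdx2 further than 6, and Gata4 and Gata6 each further than 4.

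Set against the pan-epithelial mean of the same array, Gata5 lay lower in the Klf5-deleted pools. Its signal minus that mean was -0.35, -0.74 and -0.59 in Klf5-deleted pools, against -0.35, -0.15 and -0.15 in control pools. Klf5-deleted replicate 1 and control replicate 1 nearly touched. The relative change of Gata5 was -0.35 (SE 0.13, exact permutation p = 0.1, adjusted over 6 genes p = 0.15). This depended on how the list was summarised. Against the median of the list in place of its mean it was -0.04 (SE 0.15, exact permutation p = 0.9), and against the mean without Elf3 and Ovol1, the list members with the largest falls, it was -0.48 (SE 0.13, exact permutation p = 0.1). Both of these summaries were chosen after the data were seen.

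Cdx2, Gata4 and Gata6 had smaller falls than the epithelial mean. Relative to it Cdx2 read 1.07, 1.16 and 1.07 in Klf5-deleted pools and 0.77, 0.73 and 0.77 in control pools, a relative change of 0.34 (SE 0.03). The relative changes of Gata4 and Gata6 were 0.51 (SE 0.11) and 0.51 (SE 0.10), with groups that did not overlap. For each of these 3 genes the exact permutation p was 0.1 and the adjusted p was 0.15. The sizes depended on the summary, but the signs did not. Against the list median the relative changes were 0.65 for Cdx2, 0.82 for Gata4 and 0.81 for Gata6, and without Elf3 and Ovol1 in the mean they were 0.21 for Cdx2, 0.38 for Gata4 and 0.38 for Gata6 (exact permutation p = 0.1 each).

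Whether Cdx1 and Isx followed the epithelial genes also depended on the summary. Against the list mean the relative change of Cdx1 was 0.02 (SE 0.16, exact permutation p = 1.0), and it was -0.10 without Klf5-deleted replicate 1. Isx had a relative change of 0.11 (SE 0.05, exact permutation p = 0.2). Against the list median the relative change was 0.33 for Cdx1 (SE 0.19, exact permutation p = 0.3) and 0.42 for Isx (SE 0.07, exact permutation p = 0.1). With Elf3 and Ovol1 left out of the mean it was -0.11 for Cdx1 and -0.02 for Isx (exact permutation p = 0.7 and 0.6).

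**Figure D4:**
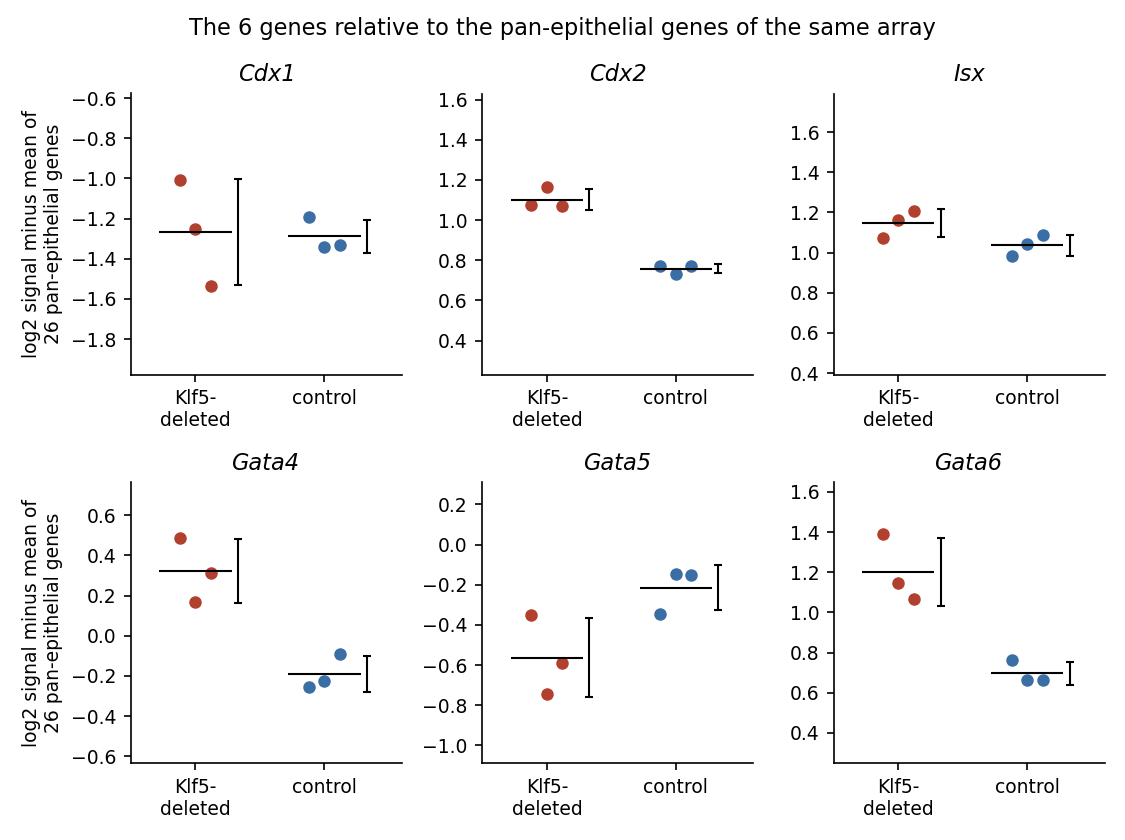
Log2 signal of each gene minus the mean of 26 pan-epithelial genes in the same array (vertical axis), in Klf5-deleted (red, left) and control arrays (blue, right), with the group mean as a line and the SD as a bar. Gata4, Gata6 and Cdx2 lie higher in Klf5-deleted pools, Gata5 lies lower, and the groups overlap for Cdx1 and Isx.

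The marker lists of other cell types had medians smaller in size than that of the pan-epithelial genes. Of 14 mesenchyme markers, 2 rose and 0 fell, with a median of 0.11, where 8.95% of all genes were called higher. Their mean signal was 11.19 to 11.20 in Klf5-deleted pools and 11.08 to 11.13 in control pools. Of 8 mesothelium markers, 6 rose and 1 fell, with a median of 0.57 and mean signals of 9.77 to 10.06 in Klf5-deleted pools and 9.17 to 9.56 in control pools. With any single array left out, 2 to 5 of them passed as higher, the fewest without control replicate 2 (2) and control replicate 3 (3). Wt1, a mesothelial transcription factor gene, passed in the fit on all arrays (0.87, limma adjusted p = 0.0161). Its adjusted p was 0.0624 with control replicate 2 left out and 0.0637 with control replicate 3 left out. Msln was the 1 marker of this list that fell (-0.52, limma adjusted p = 0.00387). Its groups did not overlap, and it kept its call with any single array left out. Of 10 smooth muscle markers 1 rose, of 8 enteric neuron and glia markers 2 rose, and of 10 endothelium markers 0 passed limma's test. At an unadjusted p under 0.05, which 30.6% of all genes had, there were 9 of 14 mesenchyme, 8 of 8 mesothelium, 6 of 8 enteric neuron and glia, 3 of 10 smooth muscle and 1 of 10 endothelium markers. Of 7 pancreas and 8 liver markers, from organs next to the gut, 0 passed limma's test, and 0 had an unadjusted p under 0.05. The mean signal of the liver markers lay at 7.78 to 9.35 in Klf5-deleted pools and 8.41 to 8.91 in control pools. Alb, the albumin gene, read 8.47, 12.53 and 11.50 in Klf5-deleted pools, against 10.85, 11.12 and 11.81 in control pools. With this spread among pools, the missing calls do not show that the pools held equal liver RNA. The part of these tissues in the falls of Gata4 and Gata6 was not tested.

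The other GATA genes showed no call. Gata1, the red cell factor, Gata2 and Gata3 were at 0.19, 0.06 and 0.06 on the log2 scale, with adjusted p of 0.588, 0.51 and 0.617. Their mean signals lay at percentiles 30.6, 49.4 and 29.0 of all genes. Cdx4, the third caudal gene of the mouse, was among the dim rows, at 4.71 to 4.79 in Klf5-deleted pools and 4.72 to 4.89 in control pools, and did not pass (-0.07, adjusted p = 0.459). Pdx1, the homeobox factor of duodenum and pancreas, was at 0.15 (adjusted p = 0.594). Its groups overlapped, at 6.96 to 7.55 in Klf5-deleted pools and 6.94 to 7.34 in control pools.

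Among cofactors, the 2 Friend of GATA genes moved in opposite directions. Zfpm1, which encodes FOG1, read 9.49, 9.60 and 9.71 in Klf5-deleted pools, against 10.45, 10.49 and 10.58 in control pools, and fell to 53.3% of the control level (log2 fold change -0.91, SE 0.07, adjusted p = 0.000184). Zfpm2, which encodes FOG2, read 8.73, 8.43 and 8.44 in Klf5-deleted pools, against 8.24, 8.21 and 8.27 in control pools. Its rise of 0.30 (adjusted p = 0.0487) lost its call in 4 of the 6 fits that leave out an array, with adjusted p of 0.0606 to 0.142, namely without Klf5-deleted replicate 3 and without any single control array. Trps1, an atypical GATA gene that encodes a repressor of GATA sites, rose by 0.60 (SE 0.05, adjusted p = 0.000261), with 10.61, 10.72 and 10.71 in Klf5-deleted pools and 10.06, 10.10 and 10.09 in control pools. Trps1 had 2 rows, and these values are of the brighter row only. In the whole list of 11 relatives and cofactors, 1 fell, 2 rose and 8 did not pass. The shares were 9.09% lower and 18.2% higher, beside 8.58% and 8.95% of all genes. The number that rose moved in 9 of the other settings tried and stayed the same or near it in 6. With quantile normalization or array median centring 1 rose.

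Of 20 genes of the intestinal epithelium described as depending on CDX factors, 13 fell, 0 rose and 7 did not pass. The median log2 fold change of the 20 was -1.02, and 65% fell, beside 8.58% of all genes. Among the pan-epithelial genes 96.2% fell, with a median of -0.88. The CDX list was drawn up with earlier results of these arrays known, so its direction is no independent evidence. The genes with the smallest p were Gpa33, Hnf4a, Lgals4 and Cdhr5, which kept 12.5%, 25.5%, 5.45% and 24.1% of the control signal. Lgals4 has close paralogs that may share its probes. Cdhr5, a protocadherin that links microvilli, read 7.51, 8.01 and 7.85 in Klf5-deleted pools, against 9.85, 9.90 and 9.78 in control pools (log2 fold change -2.05, SE 0.12, adjusted p = 6.42e-05).

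Cdh17, the liver-intestine cadherin and a direct CDX2 target, was chosen after its values were seen. It lay at 9.37, 10.16 and 9.93 in Klf5-deleted pools and 11.90 to 12.04 in control pools, and fell by 2.16 (SE 0.18, adjusted p = 0.000315). Gucy2c, the guanylin receptor gene, and Cldn2, a claudin of leaky tight junctions, fell by 0.90 (adjusted p = 0.00256) and 0.91 (adjusted p = 0.00526). The 7 genes that did not pass were Slc26a3, Heph, Sis, Car1, Lct, Krt20 and Muc2. Sis, the sucrase-isomaltase gene of weaned animals, was dim, at 5.05 on average in Klf5-deleted pools and 5.11 in control pools. The mean signals of Slc26a3, Muc2, Car1 and Lct were low too, at percentiles 10.7, 27.4, 30.2 and 31.3 of all genes. Those of Heph and Krt20 lay at percentiles 61.3 and 55.4. Mep1a and Mep1b, which encode the meprin subunits, passed with all arrays, but Mep1a lost its call without any single control array, and Mep1b without any single array other than Klf5-deleted replicate 2.

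Of 15 genes of the proximal intestine, a list written around GATA4, 6 fell and 0 rose, with a median of -0.23. The share that fell was 40%, beside 8.58% of all genes and 96.2% of the pan-epithelial genes. Apoa1, an apolipoprotein gene among the 6, lost its call without Klf5-deleted replicate 1 or 3 or control replicate 2 or 3. Adh1, an alcohol dehydrogenase gene, kept 23.7% of the control signal. Fabp1, the fatty acid binding protein of liver and proximal gut, read 5.96, 6.43 and 6.42 in Klf5-deleted pools, against 8.24, 8.83 and 8.41 in control pools, and kept 21.5%. The apolipoprotein genes Apoc3 and Apoa4 fell by 0.48 and 0.83 (adjusted p = 0.00131 and 0.00569). Lct, the lactase gene and a GATA4 target, was at 0.07 (adjusted p = 0.667). Its mean signal was low, at percentile 31.3 of all genes, so the missing call does not show that Lct was unchanged.

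Of 7 ileal genes of bile acid handling, some of which GATA4 holds low in the jejunum of the mouse, 3 fell and 0 rose. These 3 were 42.9% of the list, beside 8.58% of all genes and 96.2% of the pan-epithelial genes. Slc51a, a subunit of the basolateral bile acid exporter, read 7.09, 7.38 and 7.41 in Klf5-deleted pools, against 9.12, 9.25 and 9.05 in control pools, and fell to 27.9% of the control level (adjusted p = 4.24e-05). Nr1h4, the bile acid receptor gene, fell by 1.19 (adjusted p = 0.000383) and Nr0b2, its target, by 0.48 (adjusted p = 0.00148). The ileal transporter gene Slc10a2 and the ileal binding protein gene Fabp6 were dim, and were at -0.17 and 0.00 (adjusted p = 0.145 and 0.996).

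Genes around ISX gave no common direction. Of 13 measured genes of ISX and retinoid handling, 4 rose and 1 fell, with a median of 0.00. The shares were 30.8% higher and 7.69% lower, beside 8.95% and 8.58% of all genes. The number that fell was 2 without Klf5-deleted replicate 2 or 3 or control replicate 1 or 2. Scarb1, the scavenger receptor gene that ISX represses in the adult mouse, read 10.24, 10.25 and 10.27 in Klf5-deleted pools, against 10.58, 10.53 and 10.49 in control pools, and fell by 0.28 (SE 0.04, adjusted p = 0.00555). Bco1, the carotene cleaving enzyme that ISX also represses, was at 0.08 (adjusted p = 0.60). Rarb, a retinoic acid receptor gene that responds to its ligand, rose by 0.67 (adjusted p = 0.00160), Aldh1a2, a mesenchymal enzyme of retinoic acid synthesis, by 0.52 (adjusted p = 0.00265), and Stra6, a retinol transporter gene, by 0.54 (adjusted p = 0.00872). Aldh1a2 is also used in mesothelium, most of whose markers were higher in the same pools. The part of mesothelium in the rise of Aldh1a2 was not tested. Aldh1a1, which passed as higher too, lost its call in 4 of the 6 fits that leave out an array (Klf5-deleted replicate 2 or 3, control replicate 1 or 2).

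**Figure D5:**
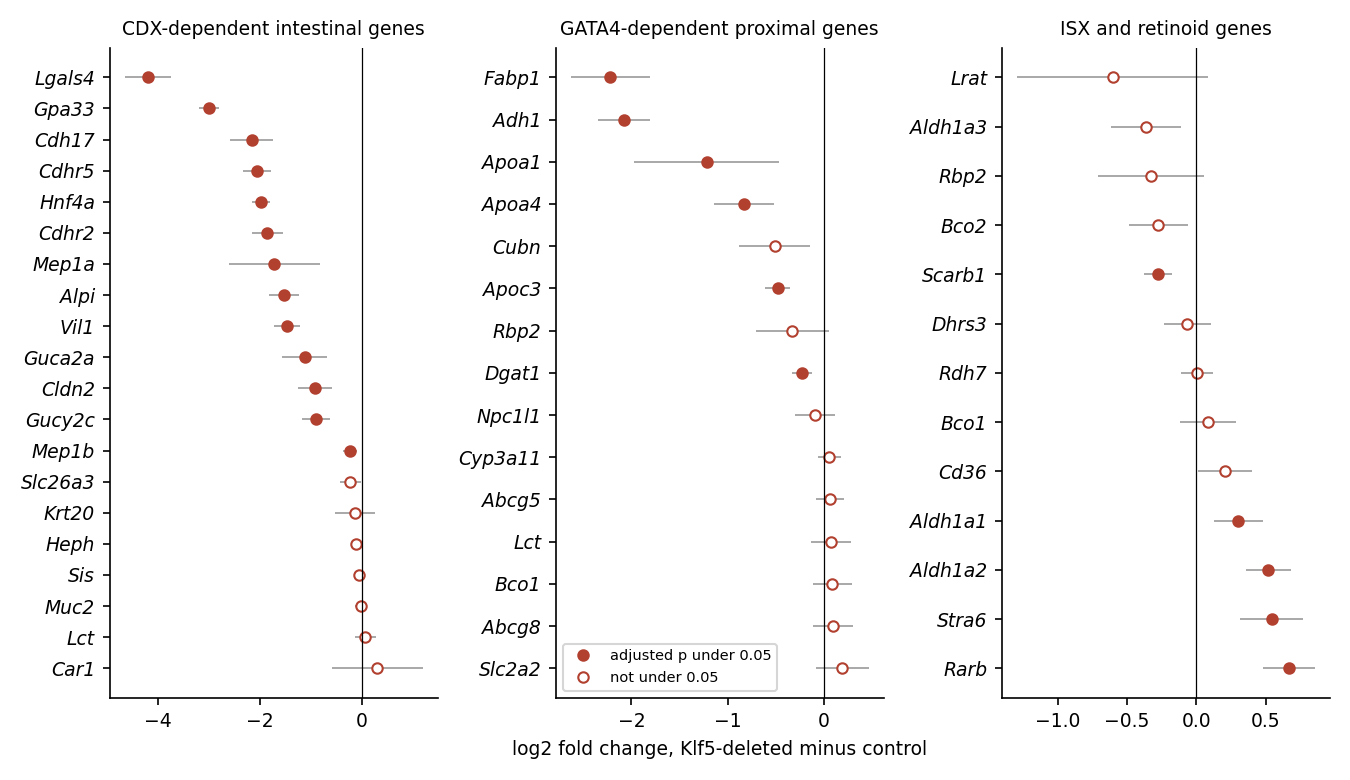
Log2 fold changes of Klf5-deleted minus control (horizontal axis) with limma's 95% intervals for 20 CDX-dependent, 15 GATA4-dependent proximal and 13 ISX and retinoid genes, ordered by size. Filled points passed an adjusted p of 0.05, which 13, 6 and 1 genes did as lower and 0, 0 and 4 as higher.

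Genes of foregut and hindgut identity had medians near 0. Of 22 stomach and esophagus genes, 5 fell (22.7%, beside 8.58% of all genes) and 0 rose, with a median of 0.00, and 2 to 5 passed as lower with any single array left out (2 without Klf5-deleted replicate 3 or control replicate 3, 3 without Klf5-deleted replicate 1 or 2 or control replicate 1). The stomach claudin gene Cldn18 fell by 0.77 (adjusted p = 0.00233) and Muc1 by 0.60 (adjusted p = 0.00919). Pgc and Tff1, which also passed as lower, each lost its call without Klf5-deleted replicate 3, control replicate 1 or control replicate 3, and also Pgc without Klf5-deleted replicate 2 and Tff1 without Klf5-deleted replicate 1. Vsig1, the fifth, lost its call without any single array other than control replicate 1 or 2. Sox2, the foregut factor that CDX2 opposes, was chosen after its values were seen. It read 8.52, 8.98 and 8.83 in Klf5-deleted pools, against 8.54, 8.53 and 8.47 in control pools (0.26, adjusted p = 0.153), and passed without Klf5-deleted replicate 1 (0.39, adjusted p = 0.00944). Of 10 hindgut and colon genes, with a median of 0.06, 1 rose (10%, beside 8.95% of all genes), Wnt11 (0.21, adjusted p = 0.0488), whose call was lost without any single array other than control replicate 1. Hoxa13, Hoxb13 and Hoxd13 were at 0.06, 0.01 and 0.07. Their mean signals were low, at percentiles 25.1, 27.7 and 26.8 of all genes, so these values do not show an unchanged hindgut identity.

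For each of the 6 genes, the 3 genes with the most similar course over the 6 arrays were found by the root mean square (RMS) difference between log2 signals centred on each gene's own mean. Nearest to Gata5 were Cyp2w1, a cytochrome gene, Eps8l2, a relative of an actin regulator, and Anpep, the brush border aminopeptidase gene, at RMS differences of 0.087, 0.088 and 0.094. Cdx1 had as neighbours the keratin gene Krt7 (0.044), the channel gene Mcoln2 (0.076) and the imino acid transporter gene Slc6a20a (0.087). The nearest to Isx were Rab11fip1, a gene of vesicle recycling (0.037), the membrane protease gene St14 (0.044), which is in the pan-epithelial list, and Clic6 (0.048).

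Closer matches were found for the genes with smaller falls. Cdx2 lay nearest to Acot4, a thioesterase gene (0.033), Crybg2 (0.036) and Eppk1, the epiplakin gene (0.036). Gata4 lay nearest to Me2, a mitochondrial malic enzyme gene (0.032), Cep170b (0.034) and Hao2, an oxidase gene (0.039). Gata6 lay nearest to Cda, the cytidine deaminase gene (0.031), Pnpla2, a triglyceride lipase gene (0.034), and Fgfr3, a growth factor receptor gene (0.036). Among all pairs of the 6 genes themselves, Gata4 and Gata6 were the most alike (0.101) and Gata5 and Gata6 the least (0.444). This measure covers 6 arrays in 2 groups and mainly reflects the size of the group difference.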

How the data were processed

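Total RNA of 6 pools, 3 Klf5-deleted and 3 control by sample title, was measured on Affymetrix Mouse Gene ST arrays. Per the submitters' processing notes, the authors deposited log2 signals computed by RMA with Expression Console 1.1. RMA forces the arrays to a shared distribution, which removes a shift that most genes have in common, and folds of dim genes are compressed. No annotation version or genome build is given in the sources used here.

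Of 35557 rows, 21789 had 1 gene symbol, 1621 had several and the rest are unnamed here. Of the rows with 1 symbol, 21698 had a gene ID found in RefSeq of GRCm38.p6 and took the symbol given there. The brightest row per gene was kept, giving 19938 genes with no filter on level. The groups were compared by limma 3.58.1 in R 4.3.3 (lmFit, eBayes), Klf5-deleted over control, with p values adjusted by Benjamini-Hochberg across these genes. The pipeline was tested on simulated data. Exact permutation tests used scipy 1.17.1. The members, the 18 lists and the rule for named genes were chosen with earlier results of these data known. Of 222 distinct list members, 205 were matched. The rule names Klf5, the 6 genes, for each list at most 4 genes of lowest p, and the 3 genes most like each of the 6. Any other gene was named after its values were seen. Lists of 9 leukocyte, 7 red cell and 4 sex-linked genes had 2, 0 and 1 members lower and 0, 1 and 0 higher. The shares were 22.2%, 0% and 25% lower and 0%, 14.3% and 0% higher, beside 8.58% and 8.95% of all genes. The Y-linked genes Kdm5d, Eif2s3y and Uty were at 1.71, 2.40 and 2.39 with groups that did not overlap. They did not pass (limma adjusted p = 0.0724, 0.12 and 0.135). The number of arrays limits precision.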

Additional observations from a re-analysis of the deposited data

How the results depend on the processing

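The 6 genes kept their direction and their call in 96 of 96 fits over 16 settings: each array left out, quantile normalization, replicate number as a block, array median centring, the lowest 25% or 50% of genes left out, a variance trend with robust variance, array weights, the mean of all rows of a gene, all rows tested and a threshold of 0.1. The highest adjusted p among these was 0.0235, for Gata4. Since each of the 6 genes had 1 row, the mean of all rows left their values as they were. A threshold of 0.1 could not remove a call made at 0.05. The fits with the male share or the pan-epithelial mean, given next, are not among the 16 settings. With the male share as covariate the log2 fold changes were -0.86 for Cdx1, -0.63 for Cdx2, -0.98 for Isx, -0.62 for Gata4 and -0.39 for Gata6, none of them past the threshold, and in that fit 83 genes passed over the whole table (79 lower and 4 higher), as did 3 CDX-dependent, 0 GATA4-dependent and 1 pan-epithelial gene as lower. With the pan-epithelial mean subtracted from each array, which moved the median of all genes to 0.98, the values were 0.024 for Cdx1, 0.34 for Cdx2, 0.11 for Isx, 0.51 for Gata4 and 0.51 for Gata6, a change of scale by construction. With Elf3 and Ovol1 left out of the mean, they were -0.11 for Cdx1 and -0.019 for Isx. Against the list median the 6 values kept their signs, but were -0.042 for Gata5 (exact permutation p = 0.9), 0.33 for Cdx1, 0.65 for Cdx2, 0.42 for Isx, 0.82 for Gata4 and 0.81 for Gata6. With the lowest 50% of genes left out, 8 CDX-dependent genes were called, since fewer were tested.

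Leaving out 1 array gave 2000 (without control replicate 2) to 2757 genes called, 1132 to 1394 of them lower and 868 to 1363 higher. Over the same fits the difference of log2 fold changes lay between -0.060 and 0.073 for Gata4 minus Gata6, between -0.89 and -0.81 for Gata5 minus Gata4 and between -0.46 and -0.20 for Cdx1 minus Cdx2, and the change of Cdx1 relative to the pan-epithelial mean lay between -0.10 and 0.16. The causes of these shifts were not tested. Same-numbered pools had correlations of -0.14, -0.27 and -0.03 over genes, and differently numbered pools had correlations of -0.06 to 0.22. These values cannot settle whether a replicate number is shared between the groups, and no label says that it is. With replicate number as a block 2008 genes passed, 1108 lower and 900 higher.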
